A study of Arabidopsis thaliana with 6 samples.

Results

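The 10 genes described here encode parts of the ROP GTPase switch of tip growth in Arabidopsis thaliana. They are the GTPases ROP1 (AT3G51300), ROP3 (AT2G17800) and ROP5 (AT4G35950), the exchange factors ROPGEF8 (AT3G24620), ROPGEF9 (AT4G13240) and ROPGEF12 (AT1G79860), the ROP-binding kinases RBK1 (AT5G10520) and RBK2 (AT3G05140), and the AGC kinases AGC1.5 (AT3G12690) and AGC1.7 (AT1G79250). They were picked by identifier from 33323 gene identifiers, and all 10 were among the 18317 genes that passed the filter on low counts. The list of identifiers uses no measured value, but it was drawn up with earlier results of these data known. Counts and medians over the 10 genes are therefore a description, and tests are those of single genes in the fit over all genes.

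RNA was sequenced from complexes of style tissue and the pollen tubes grown through it, in 3 paps1-1 libraries and 3 wild-type libraries. The paps1-1 samples carry a mutant allele of the nuclear poly(A) polymerase PAPS1 which the labels place in Col-0, and the wild-type samples are Col-0. No other allele, treatment, age or time is given. The labels do not say whether the tube, the style or both were mutant, and the word for biological replicates stands on the wild-type samples alone. PAPS1 itself (AT1G17980) stood at 88.4, 99.4 and 59.9 CPM (counts per 1e6 gene reads, with library sizes scaled by TMM) in paps1-1, against 143, 101 and 104 CPM in wild type. That is a description and no check of the labels, since a mutant allele may be transcribed at any level.

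ROPs are plant GTPases that switch between a GTP-bound active form and a GDP-bound inactive form at the plasma membrane. In a pollen tube, active ROP gathers in a patch at the apex and directs secretion, calcium influx and actin dynamics to that site, which sets where the tube grows. Exchange factors of the ROPGEF family load ROP with GTP downstream of receptor kinases, and effector proteins and kinases bind the loaded form. GTPase-activating proteins and dissociation inhibitors switch ROP off or withdraw it from the membrane.

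Gene reads per library ranged from 4541233 (paps1-1 replicate 2) to 21031017 (wild-type replicate 1). Reads with several mapping places made up 74.6% in paps1-1 replicate 2, against 7.28% to 28.0% in the other 5 libraries. A count of 3 reads, taken as the floor, corresponded to 0.152 to 0.638 CPM, and the lowest count of any of the 10 genes in any library was 67 reads. All 12 pollen tube marker genes had reads in every library. Their summed level was 43490, 44620 and 52160 CPM in paps1-1, against 62600, 38390 and 88320 CPM in wild type. VGD1 alone gave 20390, 22370 and 31960 CPM of these sums in paps1-1, and 41240, 20580 and 52270 CPM in wild type. Of 7 style markers, HEC1 and CRC had no read in any library, and STY1 had at most 3 reads, within the floor. The 7 together summed to between 30.4 and 35.7 CPM in paps1-1 and between 21.8 and 33.8 CPM in wild type. Most of this came from SPT and NGA3. Of 4 tapetum markers, A9 and MS1 had no read in any library, while AMS and LAP6 had reads in every library. The 4 together summed to between 0.851 and 1.37 CPM in paps1-1 and between 1.65 and 2.18 CPM in wild type. Libraries were made from bulk tissue, so fewer cells of a type and less RNA per cell cannot be told apart.

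RBK1 was the 1 gene of the 10 that passed the test. It fell to 30.1, 35.1 and 20.2 CPM in paps1-1, against 65.9, 82.0 and 83.2 CPM in wild type. Every paps1-1 library lay below every wild-type library. The means were 28.5 ± 7.57 CPM in paps1-1 and 77.0 ± 9.66 CPM in wild type (SD, n = 3 each), a ratio of 0.370. The log2 fold change was -1.45 (SE 0.27, 95% interval -2.01 to -0.88) with an adjusted p of 0.00535 (edgeR quasi-likelihood test, Benjamini-Hochberg over all genes tested). Of all genes tested, 2.34% were called at this threshold, 1.16% higher and 1.18% lower in paps1-1.

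**Figure D1:**
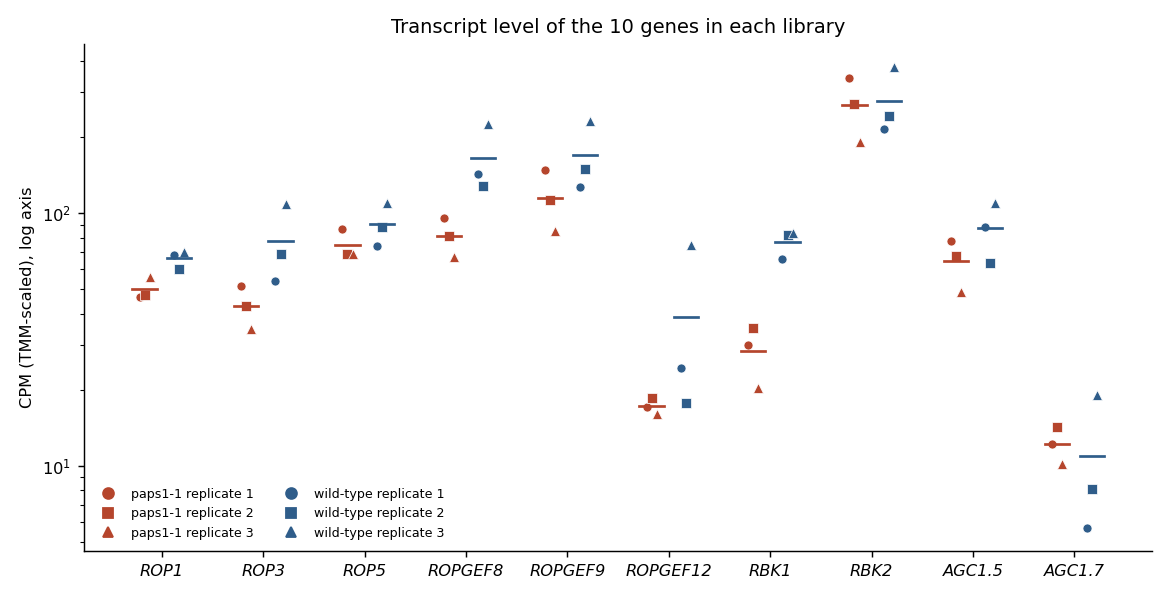
CPM of each of the 10 genes (log axis) in the 3 paps1-1 libraries (red) and the 3 wild-type libraries (blue), with one symbol per replicate and a bar at each group's mean. For RBK1 the red points (20.2 to 35.1 CPM) all lie below the blue points (65.9 to 83.2 CPM), while for RBK2 and AGC1.7 the colours are mixed.

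RBK1 and RBK2 are receptor-like cytoplasmic kinases that bind ROPs in their active form. RBK2 stood at 342, 271 and 191 CPM in paps1-1, against 214, 242 and 378 CPM in wild type. The RBK2 groups overlapped, and its log2 fold change was -0.05 (95% interval -0.73 to 0.62; edgeR adjusted p = 0.985). RBK2 was the more abundant of the pair in every library. Per kilobase of transcript, RBK2 exceeded RBK1 by 13.5, 9.18 and 11.2 times in paps1-1, against 3.87, 3.51 and 5.41 times in wild type. This ratio is taken within each library and does not depend on how libraries were scaled. Its mean was 11.3 ± 2.17 in paps1-1 and 4.26 ± 1.01 in wild type (SD, n = 3 each), and the groups did not overlap. No test was run on this ratio, which was singled out with its values in view.

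The RBK1 reads were checked for neighbours and copies. In the TAIR10.1 annotation, 454 of the 2489 exon bases of RBK1 are shared with AIL6 (AT5G10510) on the opposite strand, and the counts ignore strand. Reads on exons of both genes are counted apart as ambiguous if the annotation used for counting holds this overlap, which is not given. AIL6 stood at 21.3, 15.1 and 18.7 CPM in paps1-1, against 18.9, 25.3 and 10.7 CPM in wild type, a log2 fold change of 0.02 (SE 0.30; edgeR adjusted p = 0.995). The AIL6 groups overlapped. When reads of one strand alone were counted, the log2 fold change of RBK1 was -1.28, with adjusted p = 0.0189 by edgeR. In single libraries, between 47.7% and 55.8% of the RBK1 reads lay on the same strand. As reads of a gene fell on either strand, this count cannot tell RBK1 reads from AIL6 reads. The part of AIL6 reads in the value of RBK1 was not tested. Apart from AIL6, the longest run of identical bases between the RBK1 transcript and a transcript of another gene was 26 bases, in the kinase gene AT5G65530. RBK1 lies on chromosome 5, and of its 100 nearest tested genes 1 was called.

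RBK1 kept its call in each of the 16 alternative fits, with adjusted p between 2.36e-05 and 0.0368. Its log2 fold change ranged from -1.64 to -1.25. Without wild-type replicate 3, the library with the highest sum of pollen tube markers, it was -1.42, with adjusted p = 0.0148 by edgeR. Without both that library and paps1-1 replicate 2 it was -1.58, with adjusted p = 0.031 by edgeR. With the balance of pollen tube and style markers as a covariate it was -1.41, with adjusted p = 0.0166 by edgeR.

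**Figure D2:**
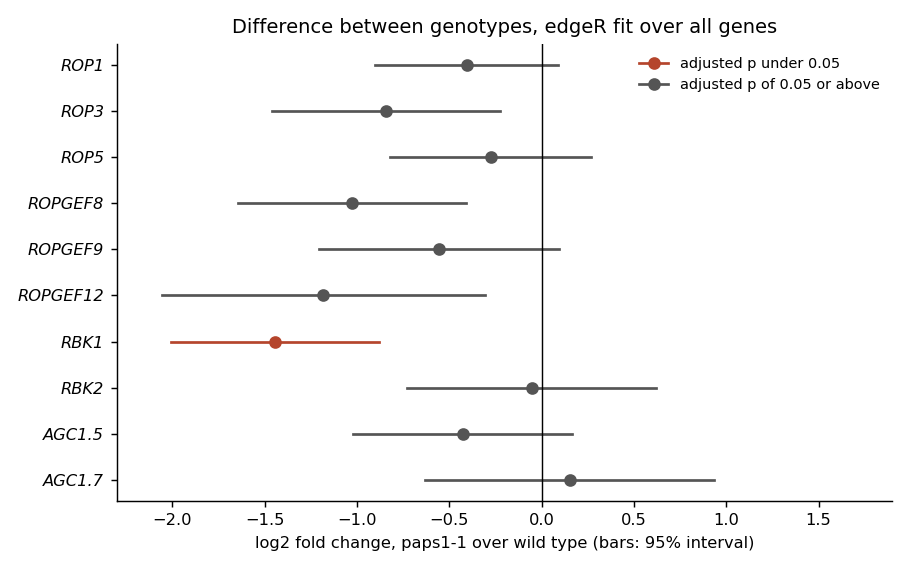
Log2 fold change of paps1-1 over wild type for each gene (point) with its 95% interval (bar), from the edgeR fit over all genes. RBK1, at -1.45, is drawn in red as the gene with an adjusted p under 0.05, and the intervals of ROP1, ROP5, ROPGEF9, RBK2, AGC1.5 and AGC1.7 include 0.

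The exchange factors ROPGEF8 and ROPGEF9 are close relatives expressed in pollen, and ROPGEF12 is the exchange factor known to bind a pollen receptor kinase through its C-terminal tail. ROPGEF8 stood at 95.4, 81.3 and 66.7 CPM in paps1-1, against 142, 128 and 226 CPM in wild type. All paps1-1 values lay below all wild-type values. Its log2 fold change of -1.03 (SE 0.29, 95% interval -1.64 to -0.41) had an adjusted p of 0.0934 (edgeR quasi-likelihood test), above the threshold. DESeq2 and the fit with no filter called it lower, with adjusted p of 0.0145 and 0.0184. Without wild-type replicate 3 the log2 fold change was -0.77. Among the 100 tested genes nearest to ROPGEF8 on chromosome 3, 8 were called, against 2.34% of all genes tested. For the other 9 genes this number lay between 0 and 3. The part of its place in the value of ROPGEF8 was not tested.

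ROPGEF9 stood at 148, 113 and 84.6 CPM in paps1-1, against 126, 150 and 231 CPM in wild type. Its groups overlapped, with paps1-1 replicate 1 above wild-type replicate 1, and its log2 fold change was -0.56 (95% interval -1.21 to 0.09; edgeR adjusted p = 0.595). The ratio of ROPGEF8 to ROPGEF9 per kilobase was 0.643, 0.718 and 0.784 in paps1-1, against 1.12, 0.850 and 0.972 in wild type. ROPGEF8 was below ROPGEF9 in every paps1-1 library and in wild-type replicates 2 and 3, and above it in wild-type replicate 1. The ratios did not overlap between genotypes, and they too were not tested.

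ROPGEF12 was the least abundant of these exchange factors. It stood at 17.03, 18.5 and 16.0 CPM in paps1-1, against 24.3, 17.6 and 74.9 CPM in wild type. Wild-type replicate 3 lay far above the other 5 libraries, and wild-type replicate 2 lay inside the paps1-1 range. Its log2 fold change was -1.18 (SE 0.41; edgeR adjusted p = 0.215) with all libraries and -0.32 (SE 0.23; edgeR adjusted p = 0.818) without wild-type replicate 3. ROPGEF8 and ROPGEF12 share a run of 38 identical bases, the longest for either gene with any other transcript, and their coding sequences are 62.1% identical. ROPGEF8 and ROPGEF9 are 78.0% identical, with a longest shared coding run of 32 bases.

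The GTPases ROP1, ROP3 and ROP5 are the ROPs known from pollen, and ROP1 is the one best studied in tube growth. Their coding sequences have the same length of 594 bases, and 80.6% of positions are identical in all 3 genes. The stretch of 60 bases with the fewest differences runs from coding base 43 to 102 and lies over the phosphate-binding loop that holds the guanine nucleotide. It is shown because near-identical copies could share reads. It is printed 5′ to 3′ from the RefSeq annotation of assembly TAIR10.1, with the 9 positions that are not the same in all 3 genes in capitals.
ROP1: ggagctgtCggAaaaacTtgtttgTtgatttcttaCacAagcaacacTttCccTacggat
ROP3: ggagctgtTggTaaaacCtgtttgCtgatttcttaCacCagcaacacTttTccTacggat
ROP5: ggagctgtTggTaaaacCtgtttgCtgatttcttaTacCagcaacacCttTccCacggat
In this stretch ROP1 stands apart from ROP3 and ROP5 at most of the capitals. Over the whole coding sequence ROP3 and ROP5 were 90.4% identical, with a longest identical run of 35 bases. ROP1 was 84.0% identical to ROP3 and 84.8% to ROP5, with runs of 23 and 20 bases. Reads that map to several places were counted apart from genes.
The stretch of 60 coding bases with the most differences runs from coding base 124 to 183, with 14 positions in capitals that are not the same in all 3 genes. The count is over all 3 genes together, so a pair of them may differ at fewer positions here. Bases outside the coding sequence were not part of this search.
ROP1: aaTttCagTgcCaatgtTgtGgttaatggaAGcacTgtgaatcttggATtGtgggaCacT
ROP3: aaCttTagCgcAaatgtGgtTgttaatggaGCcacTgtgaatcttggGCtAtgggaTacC
ROP5: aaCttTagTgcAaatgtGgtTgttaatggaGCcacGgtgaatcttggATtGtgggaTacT

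ROP3 stood at 51.5, 43.0 and 34.6 CPM in paps1-1, against 53.8, 68.9 and 109 CPM in wild type. The groups did not overlap, though paps1-1 replicate 1 and wild-type replicate 1 nearly met. Its log2 fold change of -0.84 (SE 0.29, 95% interval -1.46 to -0.23) missed the threshold (edgeR adjusted p = 0.208). It was -0.54 without wild-type replicate 3.

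ROP1 stood at 46.6, 47.5 and 55.6 CPM in paps1-1, against 68.3, 60.1 and 70.3 CPM in wild type. The groups did not overlap and each was tight, at 49.9 ± 4.96 CPM in paps1-1 and 66.2 ± 5.37 CPM in wild type (SD, n = 3 each). The log2 fold change was -0.41 (95% interval -0.90 to 0.09; edgeR adjusted p = 0.620). ROP5 stood at 86.6, 68.7 and 68.6 CPM in paps1-1, against 73.9, 87.7 and 110 CPM in wild type. Its groups overlapped, and its log2 fold change was -0.28 (95% interval -0.82 to 0.27; edgeR adjusted p = 0.839). Of the ratios among the GTPases, that of ROP3 to ROP5 per kilobase did not overlap between genotypes. It was 0.473, 0.498 and 0.402 in paps1-1, against 0.578, 0.625 and 0.790 in wild type. The ratios of ROP1 to ROP3 and of ROP1 to ROP5 overlapped. The ratio of ROP3 to ROP5 was not tested, and it was singled out with its values in view.

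The counts of ROP1 differ in kind from those of the other genes. In the TAIR10.1 annotation, 651 of its 1111 exon bases are also exon bases of AT3G51290 on the same strand, a gene at 1.16 to 3.41 CPM in paps1-1 and 2.12 to 3.23 CPM in wild type. A further 63 bases are shared with VPS35C on the opposite strand. Reads that fall on exons of more than one gene are counted apart as ambiguous, and whether the annotation used for counting holds the same overlap is not given in the sources used here. ROP1 had 81.4% of its reads on one strand over the 6 libraries, and between 79.7% and 84.1% in single libraries. The other 9 genes had 45.9% to 52.2% there, and 66 of 13202 genes with at least 300 reads (0.5%) were split as unevenly as ROP1. The part of this overlap in the level of ROP1 was not tested, and its level per length may be too low. ROP5 shares 272 of 1160 exon bases with AT4G35940 on the opposite strand, a gene at 20.8 to 25.8 CPM in paps1-1 and 14.6 to 28.9 CPM in wild type.

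The kinases AGC1.5 and AGC1.7 act together in polar growth of the pollen tube, and AGC1.5 is known to phosphorylate ROPGEFs. AGC1.5 stood at 77.6, 67.9 and 48.6 CPM in paps1-1, against 88.0, 63.5 and 109 CPM in wild type. The groups overlapped, and its log2 fold change was -0.43 (95% interval -1.02 to 0.17; edgeR adjusted p = 0.702). AGC1.7 stood at 12.2, 14.3 and 10.2 CPM in paps1-1, against 5.68, 8.12 and 19.0 CPM in wild type. Its paps1-1 values lay inside the wild-type range, which was the widest relative to its mean after ROPGEF12. It was the 1 gene of the 10 with a positive log2 fold change, at 0.15 (95% interval -0.63 to 0.93; edgeR adjusted p = 0.956). AGC1.5 exceeded AGC1.7 per kilobase by 5.56, 4.17 and 4.19 times in paps1-1, against 13.6, 6.85 and 5.03 times in wild type. Those ratios overlapped.

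**Figure D3:**
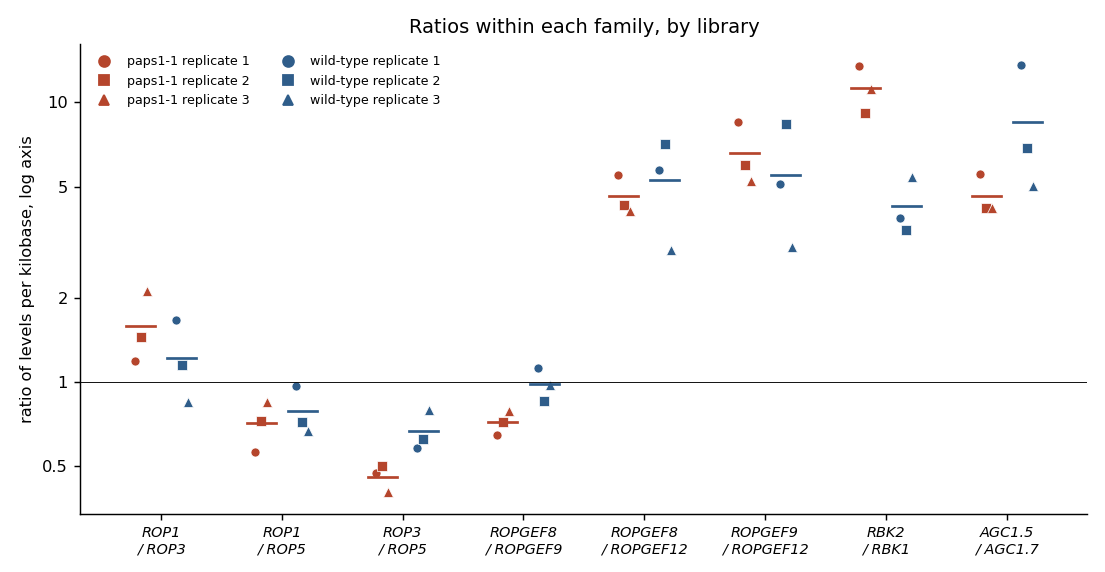
Ratio of levels per kilobase of transcript (log axis) for each pair of genes within a family, in the 3 paps1-1 libraries (red) and the 3 wild-type libraries (blue), with a bar at each group's mean. The colours separate for RBK2 over RBK1 (9.18 to 13.5 in paps1-1, 3.51 to 5.41 in wild type), for ROPGEF8 over ROPGEF9 and for ROP3 over ROP5.

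Across the 10 genes, 9 log2 fold changes were negative, and the median was -0.49 against 0.03 over all genes tested, of which 46.5% were negative. Groups did not overlap for 4 genes, all lower in paps1-1, where 14.7% of all genes tested did not overlap, 6.92% with paps1-1 higher and 7.82% with paps1-1 lower. The 4 were ROP1, ROP3, ROPGEF8 and RBK1. An unadjusted p under 0.05 was found for ROP3, ROPGEF8, ROPGEF12 and RBK1, all lower, against 10.3% of all genes tested in either direction and 6.05% lower. The median of the 10 was -0.31, with 8 negative, without wild-type replicate 3. Leaving out each library in turn gave medians between -0.68 and -0.31.

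All 10 genes had their highest value in wild-type replicate 3, and 8 of the 10 their lowest in paps1-1 replicate 3. Measured as log2 CPM minus each gene's own mean over the 6 libraries, the mean of the 10 was -0.089, -0.205 and -0.530 in paps1-1, against -0.011, 0.048 and 0.787 in wild type. The 12 pollen tube markers were also highest in wild-type replicate 3 in their sum and their mean. Not each of them was: AT4G01470 was highest in wild-type replicate 2 (53.7 against 48.4 CPM in replicate 3). MYB97 was highest in wild-type replicate 1 (386 against 376 CPM in replicate 3). The mean deviation of the 12 markers was -0.172, -0.299 and -0.220 in paps1-1, against 0.138, -0.265 and 0.817 in wild type. The log2 fold change was below 0 for 11 of these 12 markers (median -0.46), and 4 of them had an unadjusted p under 0.05. The mean of the 4 style markers that passed the filter was lowest in wild-type replicate 3, at -0.344, and between -0.115 and 0.275 in the other 5. Of the 4, NGA3 and SPT were lowest in that library. NGA1 was lowest in paps1-1 replicate 3 and NTT in paps1-1 replicate 2. Sperm markers summed to 133, 129 and 94.6 CPM in paps1-1, against 49.5, 83.0 and 88.9 CPM in wild type. Photosynthesis markers summed to 276 CPM in paps1-1 replicate 3, where 8 of the 10 genes were lowest. They summed to 51.2 to 78.2 CPM in the other 5 libraries. RBCS1A alone gave 254 CPM of the 276, against 39.0 to 66.7 CPM in the other 5 libraries. PSBO1 was also highest in paps1-1 replicate 3, at 17.7 CPM, while LHCB1.1 and LHCB2.1 were not. The part of these cell types in the values of the 10 genes was not tested. With the balance of tube and style markers as a covariate the median of the 10 was -0.32, and RBK1 was at -1.41. Only the 4 style markers that passed the filter entered it, 2 of them lower and 2 higher in paps1-1. As 11 of the 12 tube markers were lower in paps1-1, this covariate is not separate from genotype.

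**Figure D4:**
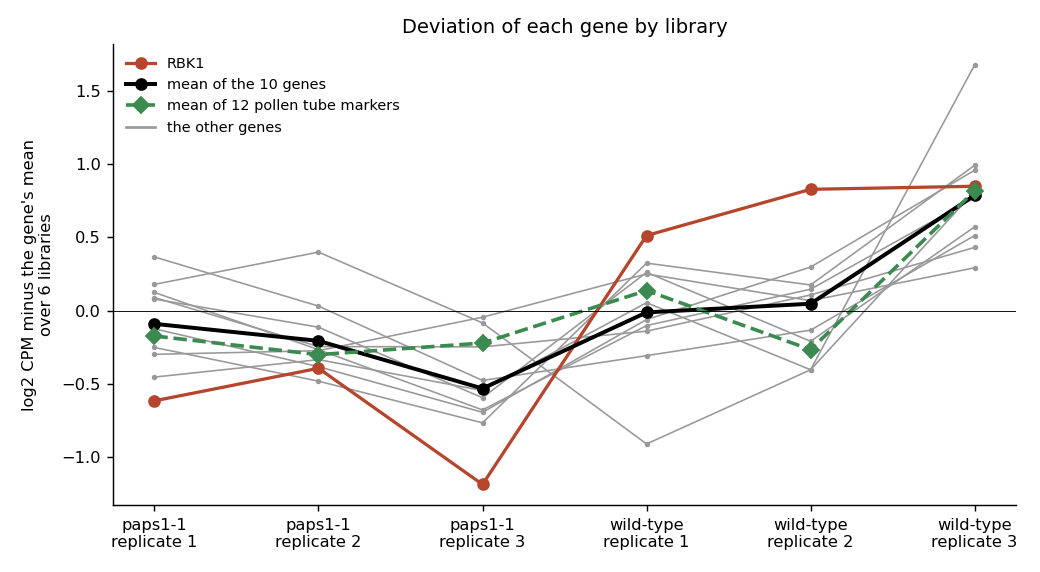
Log2 CPM minus each gene's mean over the 6 libraries, for the 10 genes (grey, with RBK1 in red), their mean (black) and the mean of the 12 pollen tube markers (green, dashed), with lines that only join values of the same gene. All grey and red points are at their highest in wild-type replicate 3, where the mean of the 10 genes is 0.787, and RBK1 is also high in wild-type replicates 1 and 2.

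The genes differed in how far they spread over the libraries. ROPGEF12 had the widest range, 2.22 on the log2 scale, followed by RBK1 with 2.03, while ROP1 had the narrowest with 0.590. ROPGEF9 followed the mean of the 10 most closely, with a root mean square difference of 0.122. The genes outside all lists with the library profile most like that mean were AT2G23148, a gene of the plant self-incompatibility protein S1 family, BZIP34, a bZIP transcription factor gene, and AT1G04500, a CCT motif family gene. Their root mean square differences over the 6 libraries were 0.048, 0.050 and 0.050 on the log2 scale. AT2G23148 stood at 80.5, 72.8 and 56.3 CPM in paps1-1, against 85.2, 81.4 and 138 CPM in wild type.

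Levels were ordered per kilobase of transcript. RBK2 was the highest of the 10, at 134 CPM per kilobase in paps1-1 and 139 in wild type. In wild type ROPGEF9, ROPGEF8 and ROP5 followed, at 86.0, 83.6 and 78.0 CPM per kilobase. The ranges of these neighbours over the libraries overlapped, though RBK2 lay above ROPGEF9 in every single library. ROP1 (59.6), ROP3 (53.0), AGC1.5 (34.0) and RBK1 (32.4) came next, with ROP5 above ROP1 in every library and the other neighbours overlapping. ROPGEF12 (20.1) and AGC1.7 (4.88) were the lowest. In paps1-1 the order was RBK2, ROP5 (64.4), ROPGEF9 (58.5), ROP1 (44.9), ROPGEF8 (41.0), ROP3 (29.5), AGC1.5 (25.3), RBK1 (11.97), ROPGEF12 (8.87) and AGC1.7 (5.45). Per kilobase of coding sequence, ROPGEF8 stood behind RBK2, the 3 GTPases and ROPGEF9 in both genotypes. RBK1 ran level with AGC1.5 in wild type but lay below it in every paps1-1 library.

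Within the ROP family of 11 genes, ROP5, ROP1 and ROP3 were the 3 highest in both genotypes. The next was ROP4, at 15.9 CPM per kilobase in both genotypes, below ROP3 in every library. ROP2 followed, at 9.85 in paps1-1 and 8.73 in wild type. ROP7 had no read in any wild-type library and at most 2 in a paps1-1 library, which is within the floor of 3 reads. The exchange factors gave another picture. The highest of the 14 ROPGEF genes was ROPGEF11, at 99.7 CPM per kilobase in paps1-1 and 154 in wild type, above ROPGEF8, ROPGEF9 and ROPGEF12 in every library. ROPGEF13, which the rule for named genes did not pick, stood at 60.5 in paps1-1 and 58.5 in wild type. It lay below ROPGEF8 in every wild-type library, and above it in every paps1-1 library.

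**Figure D5:**
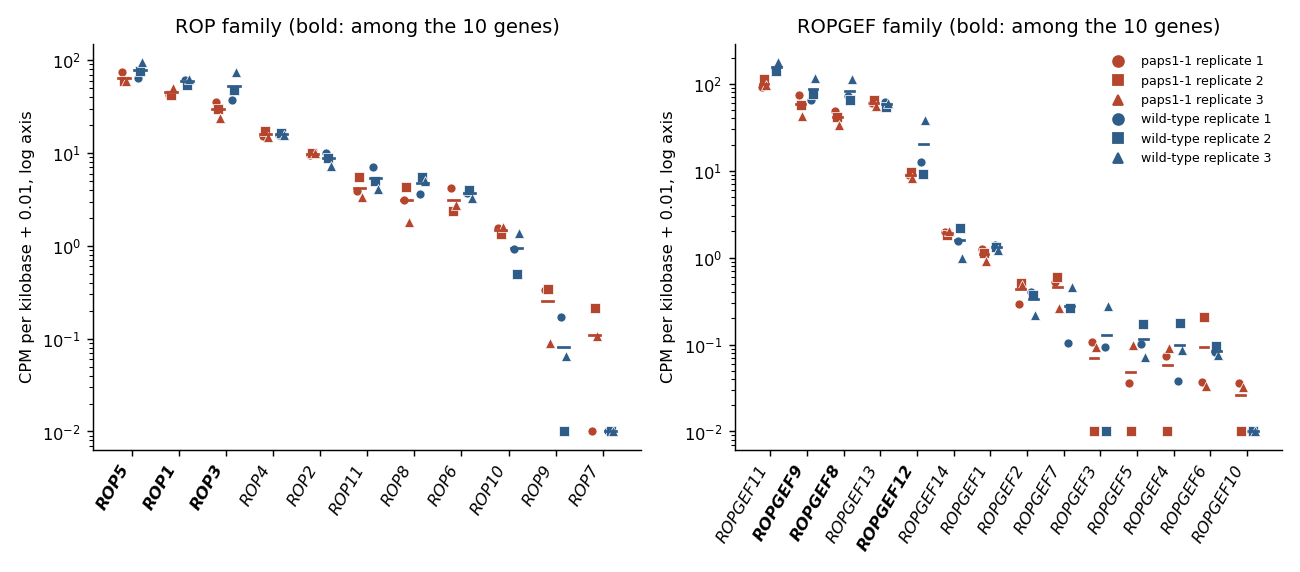
CPM per kilobase of transcript, with 0.01 added for the log axis, for the 11 ROP genes (left) and the 14 ROPGEF genes (right), in order of the wild-type mean, with paps1-1 in red, wild type in blue and bars at the means. ROP5, ROP1 and ROP3 head the ROP family, while ROPGEF11 stands above ROPGEF8, ROPGEF9 and ROPGEF12.

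The rest of the pathway was read from the same fit. Of 59 further genes, 44 were tested, and 2 were called, both lower in paps1-1, where 1.18% of all genes tested were called lower. Their median log2 fold change was -0.09, with 27 negative and 17 positive. The 15 that were not tested had at most 18 reads in any library, and 1 of them, RIC10, had none.

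The effector list holds CRIB-motif proteins, which bind active ROP, and ICR-type adaptors. Of its 10 tested genes edgeR called 1 lower and 0 higher, with a median log2 fold change of -0.27. RIC1 (AT2G33460), named after its values were seen, was also called lower by DESeq2, in the fit with no filter and without wild-type replicate 2. It stood at 58.0, 50.2 and 64.9 CPM in paps1-1, against 120, 70.9 and 142 CPM in wild type, without overlap (log2 fold change -0.94, SE 0.29; edgeR adjusted p = 0.129). RIC5 (AT3G23380), a CRIB-motif effector expressed in pollen, fell to 62.1, 61.1 and 54.9 CPM in paps1-1, against 120, 98.0 and 137 CPM in wild type. The groups did not overlap, and its log2 fold change was -0.997 (SE 0.25). Its adjusted p of 0.04998 by the edgeR quasi-likelihood test is just under the threshold. Of 16 alternatives, 6 kept the call, and adjusted p ranged from 0.00268 to 0.207. The log2 fold change stayed between -1.12 and -0.88. RIC5 lies on chromosome 3, where 5 of its 100 nearest tested genes were called.

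In the list of related kinases, of 12 tested genes 1 was called lower and 0 higher, with a median log2 fold change of -0.08. It was AT1G16440, named RSH3 (root hair specific 3) in the reference and listed here with the AGC kinases. It fell to 2.08, 1.92 and 1.01 CPM in paps1-1, against 3.36, 5.92 and 7.23 CPM in wild type, without overlap. Its log2 fold change was -1.76 (SE 0.39; edgeR adjusted p = 0.0209), from 9 to 35 reads per paps1-1 library and 65 to 103 per wild-type library. The call was kept in 9 of 15 alternatives, with adjusted p from 6.46e-05 to 0.208, and the log2 fold change stayed between -2.06 and -1.42. The call was lost without paps1-1 replicate 3, without wild-type replicate 2 or 3, and without both paps1-1 replicate 2 and wild-type replicate 3. The strand with the larger total and the marker covariate lost it too, with edgeR adjusted p of 0.147 and 0.0991. The most abundant kinase of the list, AT5G65530, stood at 307, 296 and 302 CPM in paps1-1, against 320, 256 and 639 CPM in wild type. Its groups overlapped, and its log2 fold change was -0.43 (SE 0.34; edgeR adjusted p = 0.790).

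No gene of the remaining lists was called by edgeR. At an unadjusted p under 0.05 there were 0 of 6 further ROP genes, 1 of 7 further exchange factors and 2 of 9 inactivators, where 10.3% of all genes tested were at this level. DESeq2 and limma-voom called 0 of them. ROPGEF11 stood at 191, 235 and 201 CPM in paps1-1, against 306, 294 and 369 CPM in wild type, without overlap (log2 fold change -0.63, SE 0.27; edgeR adjusted p = 0.404). ROPGEF7 was near the floor, at 0.987 ± 0.380 CPM in paps1-1 and 0.580 ± 0.389 CPM in wild type (SD, n = 3 each). ROP4, at 21.1 CPM in both genotypes, had a log2 fold change of -0.01 (95% interval -0.48 to 0.47). ROP8 had a log2 fold change of -0.70 (SE 0.35) and ROP10 one of 0.70 (SE 0.44), both at mean levels of at most 4.88 CPM.

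Among the inactivators, SCN1, a dissociation inhibitor, was the most abundant. It stood at 486, 361 and 609 CPM in paps1-1, against 556, 360 and 617 CPM in wild type, and its log2 fold change was -0.07 (95% interval -0.76 to 0.61). AT1G62450 and AT1G12070, listed here as further dissociation inhibitors and annotated in the reference with the same protein family as SCN1, had groups that did not overlap, both lower in paps1-1, where 7.82% of all genes tested did so. PHGAP2 (AT5G19390), a GTPase-activating protein gene named after its values were seen, did not overlap in the other direction, as 6.92% of all genes tested did. It stood at 5.88, 6.60 and 5.56 CPM in paps1-1, against 4.03, 5.55 and 3.37 CPM in wild type (log2 fold change 0.46, SE 0.28; edgeR adjusted p = 0.672). AT1G62450 stood at 69.4, 69.2 and 43.8 CPM in paps1-1, against 79.5, 120 and 102 CPM in wild type (log2 fold change -0.73, SE 0.27; edgeR adjusted p = 0.285). AT1G12070 stood at 96.2, 81.5 and 74.5 CPM in paps1-1, against 105, 126 and 147 CPM in wild type (log2 fold change -0.58, SE 0.26; edgeR adjusted p = 0.424).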

How the data were processed

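Per the labels, RNA came from PicoPure column extraction with DNase, and mRNA libraries were run on the HiSeq2000. The notes on processing name STAR and TAIR10 (per the submitters' processing notes). Not given in the sources used here are the STAR version, annotation and options. The deposited values are raw counts, whole reads per gene, not normalized by the authors. The 2 strand columns had near-equal totals (ratio 1.02 to 1.07), so the counts that ignore strand were used. Rows naming no gene were left out: multi-mapping reads made up 7.28% to 74.6% of reads, unmapped 1.32% to 4.36%, reads outside genes 2.71% to 9.93% and ambiguous reads 0.228% to 1.65%.

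Genes were filtered with filterByExpr (edgeR 4.0.16, R 4.3.3, minimum count 10), scaled by TMM and compared with edgeR's quasi-likelihood test (two-sided), p-values being adjusted over all 18317 genes by Benjamini-Hochberg, with a threshold of 0.05. SE is the log2 fold change over the root of the F statistic. No libraries agreed within sampling noise (chi-square per degree of freedom at least 52.3 within genotypes). No label ties the paps1-1 samples to separate plants, and p-values reflect only the variation among these samples, which may be technical. Names, transcript lengths and coding sequences came from TAIR10.1, which matched 32835 identifiers. As its build name differs from that of the counts, no coordinates are printed. Deviations use log2 CPM with a prior count of 2. Intervals are at 95% and, like floors, cover no bias of counting.

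The members, lists and tests were chosen with earlier results of these data known. By the rule, the text names all 10 members, called genes of each pathway list or otherwise the 2 with the smallest p, the most abundant of each list, and the 3 genes with the most similar profile. Alternatives used DESeq2 1.42.0, limma-voom (limma 3.58.1), other scaling, filters, strands and libraries. The fit was tested on simulated data.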

Additional observations from a re-analysis of the deposited data

How the results depend on the processing

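RBK1 was called lower in all 16 alternatives. The number of the 10 genes called was 1 in every fit but DESeq2, which called 2 (RBK1 and ROPGEF8), and the fit with no filter, which called 3 (with ROPGEF12). It was 1 with each library left out. Over all genes, 429 were called, 1042 with no filter, 216 with at least 5 CPM in 3 libraries, 237 without both wild-type replicate 3 and paps1-1 replicate 2, and 333 to 456 with each library left out. The calls split into 213 higher and 216 lower, against 237 and 383 by DESeq2, 205 and 130 with the marker covariate, 217 and 136 without wild-type replicate 3, and 233 and 131 without paps1-1 replicate 3. Of the further pathway genes, 2 were called. It was 1 with the strand of the larger total, 1 with RLE factors, 0 with at least 5 CPM in 3 libraries (where AT1G16440 was not tested), 0 with the marker covariate, 0 without both libraries named above, and 0 to 2 with each library left out (0 without wild-type replicate 3 or paps1-1 replicate 3). The cause was not tested. RBK2 changed sign, from -0.05 to 0.19 with the covariate, 0.14 without paps1-1 replicate 3, 0.20 without wild-type replicate 3 and 0.20 without both libraries (-0.27 to 0.20 when single libraries were dropped). AGC1.7 changed sign, from 0.15 to -0.17 without wild-type replicate 1 and -0.02 without wild-type replicate 2, and was 0.78 without wild-type replicate 3. With coding length in place of transcript length, 3 of 10 genes kept their place in the wild-type order. Replicate numbers are shared by both genotypes, but the deviations of same-numbered samples correlated at -0.256, 0.126 and -0.151, and 2 of 6 libraries correlated best with their own number. With a replicate block, 482 genes, 1 of the 10 and 1 further pathway gene were called. Low depth of paps1-1 replicate 2 limits the genes near the floor most. The 10 genes had at least 67 reads there. Without that library the log2 fold change was -1.64 for RBK1 and 0.02 for AGC1.7. The part of its depth in the values of the 10 genes was not tested.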
